A study of Homo sapiens with 12 samples.

Results

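The interferon-stimulated genes are the genes that a cell transcribes when an interferon reaches its receptor. A list of 45 of their symbols was followed here through 3 gastric cancer cell lines, each sorted by the stem cell marker CD133. The 45 genes were taken by symbol and not by their values, and each of them has a row among the 34595 genes with a value. All 45 lay above the noise floor of the arrays (an intensity of 32.7) on at least 2 arrays and were tested, and 34 of them lay above it on all 12 arrays.

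KATO-III, SNU-216 and SNU-601 are established gastric cancer cell lines. Cells of each line were grown in the same serum-containing medium, stained with an antibody to CD133 (the membrane glycoprotein prominin-1, encoded by PROM1) and sorted by fluorescence into the brightest 10% (CD133+) and the dimmest 6% (CD133-). No interferon, virus or other agent is named in the labels or the methods for any of the 6 populations. Each population was hybridized on 2 Illumina HT-12 v3 BeadChip arrays, 12 in all, and whether the 2 arrays of a population come from separate sorts is not stated. The p-values within and between lines therefore measure only the spread between these arrays, which may be technical. Those over all lines pool that spread with the variation between lines in the difference between fractions. Each line stands for itself alone, and a difference between lines is a difference between these 3 lines. The text deposited for the design names SNU201 where the labels name SNU-216, and the labels were followed. In RNA from sorted bulk populations, fewer cells with a transcript and less transcript in each cell cannot be told apart.

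The sort and the cell type were checked first. PROM1 read 9513 and 8847 in CD133+ and 4056 and 4493 in CD133- KATO-III cells, 9273 and 8773 in CD133+ and 2232 and 2219 in CD133- SNU-216 cells, and 4877 and 4677 in CD133+ and 1315 and 1324 in CD133- SNU-601 cells. It was higher in the CD133+ fraction of every line, by 1.10, 2.02 and 1.86 on the log2 scale, and the fractions did not overlap. The 2 arrays of a population correlated at r = 0.993 to 0.995 over all tested genes, and each array had 16320 to 16474 genes over the floor. The latter number is held nearly equal by quantile normalization. All 6 epithelial markers (EPCAM, its older symbol TACSTD1, CDH1, KRT8, KRT18 and KRT19) were above the floor on every array, with a summed intensity of 54947 to 65089. The leukocyte markers PTPRC, CD3D and CD3E, which define leukocytes and T cells, and all 4 endothelial markers were at the floor on every array. Of the other leukocyte markers, LYZ read 4483 to 10021 in KATO-III and SNU-601, CD14 read 835 to 1242 in KATO-III, and CD68 reached 1625 in SNU-601.

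Type I and type II interferons signal through paired receptors, the Janus kinases bound to them and STAT transcription factors. STAT2 acts with IRF9 at the interferon-stimulated response element (ISRE), and STAT dimers bind the gamma-activated site (GAS). The genes induced in this way encode sensors of viral RNA, enzymes that degrade it, proteins that block its translation or the entry of a virus, the ubiquitin-like protein ISG15 with its conjugation enzymes, and the signal transducers themselves. Many cancer cells transcribe part of this set without added interferon.

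The promoters were searched for the elements named above. Of the 45 genes, 36 had a promoter in the RefSeq table (build GRCh38.p14, from 250 bases before to 50 after the annotated start). The ISRE core (GAAA, any 2 bases, then GAAA, or TTTC, any 2 bases, then TTTC on the other strand, with overlapping matches counted) was found in 23 of these 36 promoters (63.9%) and in 1255 of 35116 promoters in the table (3.57%). The GAS core TTCNNNGAA, which reads the same on both strands, was found in 9 of 36 (25%) against 2689 of all promoters (7.66%). A match of letters is a description and not a measured binding site. The core was not found in this window of the other 13 promoters, those of OAS1, UBE2L6 and HERC6 among them. The 200 bases before the start are shown, to give the element in its context, for 7 genes described below that were chosen because their promoter holds the core and after their levels were seen, 5′ to 3′ in the direction of the gene, with the bases of each ISRE core in capitals. They lie at chr14:94110536-94110735 (+) for IFI27, chr19:17405631-17405830 (-) for BST2, chr1:1013297-1013496 (+) for ISG15, chr1:27672193-27672392 (-) for IFI6, chr10:89392423-89392622 (+) for IFIT1, chr15:88638816-88639015 (+) for ISG20 and chr1:89065209-89065408 (-) for GBP1.
IFI27: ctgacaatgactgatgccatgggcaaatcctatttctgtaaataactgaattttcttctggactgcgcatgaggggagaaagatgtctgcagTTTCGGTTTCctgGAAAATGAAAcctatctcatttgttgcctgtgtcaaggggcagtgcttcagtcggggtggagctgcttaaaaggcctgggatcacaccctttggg
BST2: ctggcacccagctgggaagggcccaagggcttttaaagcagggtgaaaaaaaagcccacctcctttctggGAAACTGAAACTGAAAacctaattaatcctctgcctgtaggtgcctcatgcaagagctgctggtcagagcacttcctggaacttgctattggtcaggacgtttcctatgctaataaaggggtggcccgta
ISG15: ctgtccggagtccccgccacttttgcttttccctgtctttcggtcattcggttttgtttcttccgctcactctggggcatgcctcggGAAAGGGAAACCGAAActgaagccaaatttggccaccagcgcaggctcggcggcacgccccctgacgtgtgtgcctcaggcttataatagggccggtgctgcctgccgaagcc
IFI6: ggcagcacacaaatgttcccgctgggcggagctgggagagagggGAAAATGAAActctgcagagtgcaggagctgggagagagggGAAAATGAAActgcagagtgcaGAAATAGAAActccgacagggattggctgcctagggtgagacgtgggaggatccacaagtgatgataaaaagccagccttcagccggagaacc
IFIT1: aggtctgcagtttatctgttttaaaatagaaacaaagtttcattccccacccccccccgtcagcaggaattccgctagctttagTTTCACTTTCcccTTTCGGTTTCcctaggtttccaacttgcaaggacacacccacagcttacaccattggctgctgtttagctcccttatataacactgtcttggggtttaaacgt
ISG20: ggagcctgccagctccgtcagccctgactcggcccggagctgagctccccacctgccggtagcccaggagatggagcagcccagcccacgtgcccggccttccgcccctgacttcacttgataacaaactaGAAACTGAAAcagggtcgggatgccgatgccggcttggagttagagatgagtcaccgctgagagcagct
GBP1: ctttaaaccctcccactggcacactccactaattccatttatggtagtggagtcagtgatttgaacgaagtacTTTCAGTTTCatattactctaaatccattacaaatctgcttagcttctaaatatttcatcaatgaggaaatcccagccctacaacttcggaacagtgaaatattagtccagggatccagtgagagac
The core occurs 3 times in IFI6, 2 times in IFI27, BST2, ISG15 and IFIT1, where the matches of BST2 and ISG15 overlap, and 1 time in ISG20 and GBP1.

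The line was the main axis along which the 45 genes varied. For the median gene of the list, 95.5% of the variance of log2 intensity over the 12 arrays lay between lines, 1.20% between the CD133 fractions, 1.59% in the dependence of the fraction on the line and 0.399% between the arrays of a population. The same medians over all 20147 tested genes were 62.8%, 4.21%, 10.3% and 5.50%. The median distance between the highest and the lowest line was 2.45 log2 for the 45 genes and 0.70 for all tested genes. All tested genes include dim ones, for which raising values to the floor narrows such distances. Neither these medians nor the count below were computed among bright genes alone. SNU-601 was the line with the highest mean for 34 of the 45 genes (75.6%), against a background of 31.8% of all tested genes. IFI44L, MX2 and SAMD9L were tested only because they passed the floor in SNU-601, which fixed their place in that count. RSAD2, with only 1 array above the floor outside SNU-601, also entered the count through its SNU-601 arrays. SNU-216 was highest for 6 (background 37.4%) and KATO-III for 5 (background 30.8%). TRIM22 was tested only because it passed the floor in KATO-III, which fixed its place among these 5.

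The median intensity of the 45 genes was 1645 to 1712 on the SNU-601 CD133+ arrays and 1491 to 1559 on the SNU-601 CD133- arrays. On the KATO-III arrays it was 413 to 447 in CD133+ and 476 to 509 in CD133- cells, and on the SNU-216 arrays 376 to 377 and 442 to 468. The median of all tested genes ran from 7.30 to 7.37 on the log2 scale. Quantile normalization makes the arrays alike in this, so it is no check of their overall brightness. In SNU-601, 44 of the 45 genes were above the floor on both arrays of each fraction, whereas 38 and 39 were in CD133+ and CD133- KATO-III cells and 37 in each fraction of SNU-216. Over all genes with a value, 43.4% to 44.8% were above the floor on both arrays of a population. The normalization also holds that share nearly equal.

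**Figure D1:**
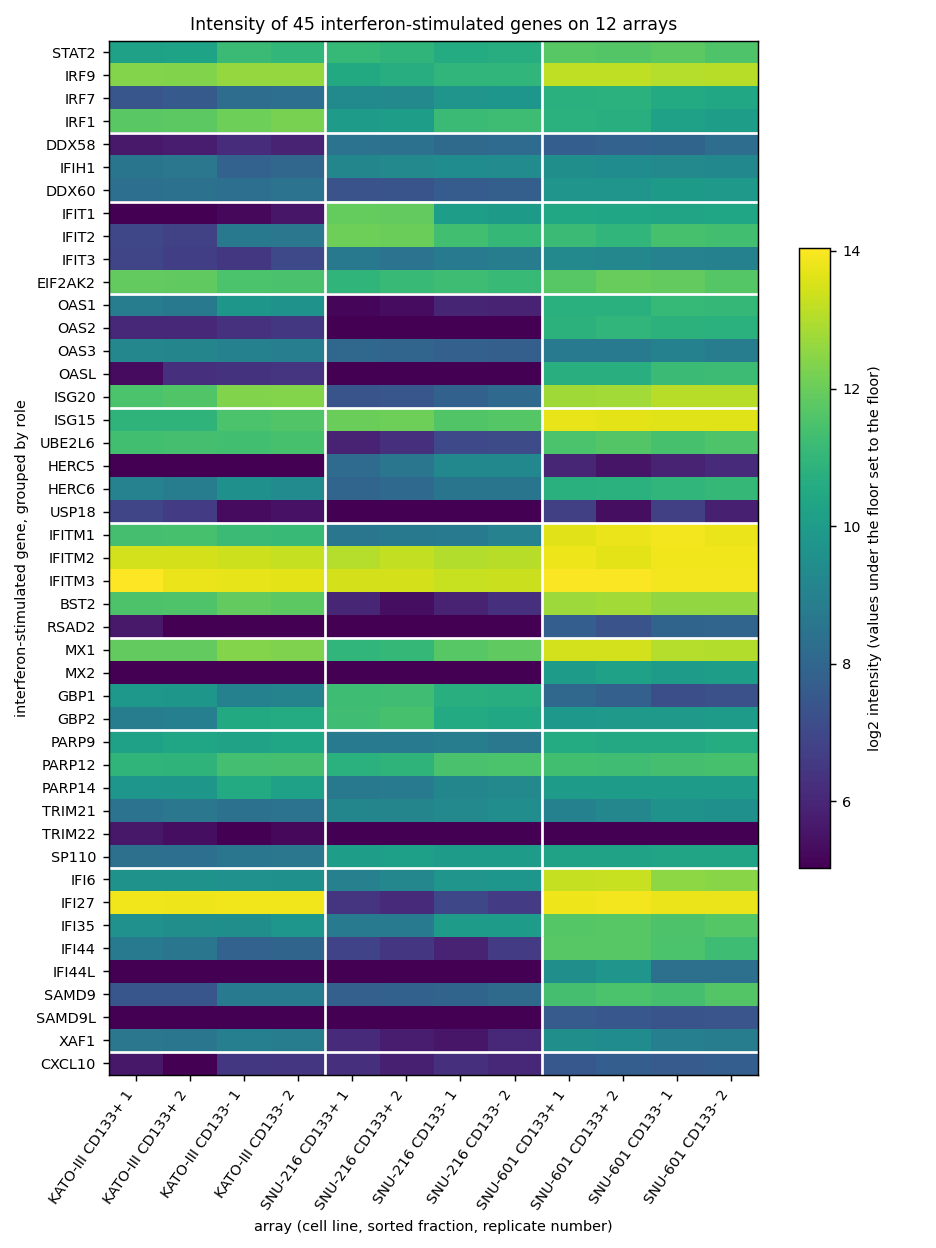
Log2 intensity of each of the 45 interferon-stimulated genes (rows, grouped by role) on each of the 12 arrays (columns, by cell line, fraction and replicate number), with values under the floor set to it. The 4 SNU-601 columns are brighter for most genes, the paired arrays of a population are nearly alike, and the step between lines exceeds the step between fractions in most rows.

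In limma, 35 of the 45 genes were lower in KATO-III than in SNU-601 and 4 higher, where 29.9% and 28.7% of all tested genes were. Again 35 were lower in SNU-216 than in SNU-601 and 7 higher, with a background of 27.1% and 29.4%. KATO-III exceeded SNU-216 for 26 genes and was lower for 12 (background 30.3% and 31.7%). The median difference of the 45 genes was -1.13 log2 for KATO-III minus SNU-601, -1.80 for SNU-216 minus SNU-601 and 0.28 for KATO-III minus SNU-216, and the same medians over all tested genes were -0.02, 0.01 and -0.03. The same counts were made among genes above the floor on all 12 arrays. There 26 of 34 members were lower in KATO-III than in SNU-601 and 3 higher (background 36.7% and 34.6%). For SNU-216 against SNU-601, 27 were lower and 5 higher (background 33.4% and 37.4%). KATO-III exceeded SNU-216 for 22 and was lower for 10 (background 34.5% and 38.2%). IFI44L, MX2 and SAMD9L passed the filter only through SNU-601 arrays, which fixed their place in the counts of 45. RSAD2 also needed its SNU-601 arrays to pass, since only 1 other array, of KATO-III, was above the floor. TRIM22 passed only through KATO-III arrays, which fixed its direction in the comparisons of KATO-III with the other lines. The 3 comparisons of lines share arrays and are not independent of each other.

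The widest span between lines was that of IFI27, a small mitochondrial and nuclear envelope protein. IFI27 read 14653 and 14338 in CD133+ and 14873 and 14758 in CD133- KATO-III cells, 83.1 and 69.9 in CD133+ and 127 and 99.1 in CD133- SNU-216 cells, and 14366 and 15032 in CD133+ and 14251 and 13984 in CD133- SNU-601 cells. KATO-III and SNU-601 overlapped, and SNU-216 was 159-fold lower than KATO-III (a log2 difference, with its standard error from limma here and below, of 7.31 ± 0.078, adjusted p = 2.67e-12). The second was BST2 (tetherin), which holds budding virus particles at the cell surface and which read 2925 and 3031 in CD133+ and 3804 and 3518 in CD133- KATO-III cells, 63.6 and 41.1 in CD133+ and 58.9 and 77.8 in CD133- SNU-216 cells, and 6752 and 7079.9 in CD133+ and 6132 and 6182 in CD133- SNU-601 cells. SNU-216 lay 111-fold below SNU-601 and 56.1-fold below KATO-III, and no array of SNU-216 overlapped another line. OASL, a relative of the 2-5A synthetases that enhances RIG-I signalling, read 1704 and 1632 in CD133+ and 2339 and 2399 in CD133- SNU-601 cells, against 39.2 and 75.4 in CD133+ and 81.9 and 86.3 in CD133- KATO-III cells. It was at or under the floor on all 4 SNU-216 arrays, so SNU-601 was at least 60.8-fold higher than SNU-216 (adjusted p = 2.19e-09).

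SNU-216 was the low line for several further antiviral genes. OAS1 was 12.5-fold and ISG20 19.2-fold lower in SNU-216 than in KATO-III, and 40.1-fold and 37.9-fold lower than in SNU-601. UBE2L6, the E2 enzyme of ISG15 conjugation, was 27.5-fold lower in SNU-216 than in KATO-III, while KATO-III and SNU-601 did not pass the test (-0.18 ± 0.075, adjusted p = 0.0748). IFITM1, which restricts the entry of viruses, was 32.3-fold lower in SNU-216 than in SNU-601. IFITM1, IFITM2 and IFITM3 are near-identical in sequence, and the probes behind their rows are not given, so signal shared between them cannot be resolved. OAS2 was at or under the floor on all 4 SNU-216 arrays and at least 56.4-fold higher in SNU-601.

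A second group of genes was higher in SNU-601 than in both other lines. ISG15, the ubiquitin-like modifier, read 1889.7 and 1918 in CD133+ and 2920 and 3098 in CD133- KATO-III cells, 4165 and 4279 in CD133+ and 3072 and 3255 in CD133- SNU-216 cells, and 13686 and 13161 in CD133+ and 12541 and 12601 in CD133- SNU-601 cells. All 4 SNU-601 arrays lay above every array of the other lines, and SNU-601 was 5.43-fold above KATO-III and 3.56-fold above SNU-216. IFI6, a mitochondrial protein that counters apoptosis, read 809.7 and 787 in CD133+ and 766 and 751 in CD133- KATO-III cells, 502 and 594 in CD133+ and 859 and 865 in CD133- SNU-216 cells, and 9857 and 9942 in CD133+ and 5876 and 5517 in CD133- SNU-601 cells, so that SNU-601 was 9.65-fold above KATO-III and 10.9-fold above SNU-216. IFI44L, MX2 and SAMD9L lay above the floor on the 4 SNU-601 arrays and on no array of another line. SNU-601 alone thus brought them into the tests. SNU-601 was at least 15.6-fold higher than either other line for IFI44L and at least 32.5-fold for MX2, a dynamin-like GTPase of the nuclear envelope. For SAMD9L, a restriction factor, it was at least 5.45-fold.

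Some genes ran against this order. IFIT1, which binds viral RNA without a host cap, was at or under the floor in CD133+ KATO-III cells and at 37.5 and 47.4 in CD133- KATO-III cells, so that SNU-216 was at least 53.1-fold and SNU-601 at least 35.0-fold higher. SNU-216 exceeded SNU-601 for IFIT1 (0.60 ± 0.072, adjusted p = 5.96e-05) and for its neighbor IFIT2 (0.38 ± 0.078, adjusted p = 0.00215). GBP1, a guanylate-binding protein of the defense against intracellular pathogens, was lowest in SNU-601, 10.5-fold below SNU-216 and 3.59-fold below KATO-III. HERC5, the E3 ligase of ISG15 conjugation, was at the floor in KATO-III and highest in SNU-216, 7.52-fold above SNU-601. IRF1 was highest in KATO-III, 2.47-fold above SNU-216, and TRIM22 lay above the floor on 3 KATO-III arrays and on no other.

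**Figure D2:**
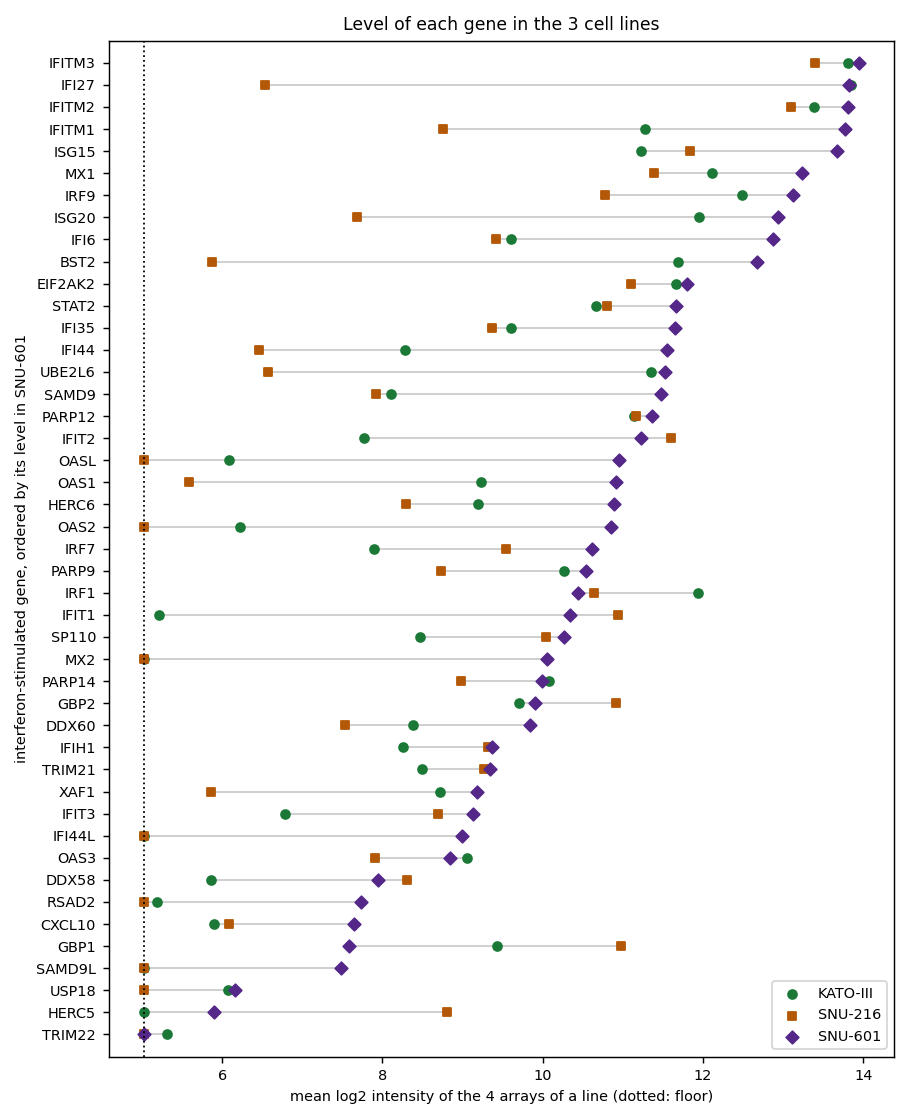
Mean log2 intensity of the 4 arrays of each line for each of the 45 genes, ordered by the level in SNU-601, with the floor as a dotted line and a grey bar from the lowest to the highest line. SNU-601 is the rightmost symbol for 34 genes, and IFI27 and BST2 show the widest bars.

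Fewer of the genes were called between the CD133 fractions than between the lines, and for part of them the direction differed between lines. Over all lines, with line as a block, 1 gene was higher and 4 were lower in CD133+ cells, where 2.62% and 2.11% of all tested genes were. In KATO-III the CD133+ cells were higher for 9 genes and lower for 18 (background 18.7% and 20.6%), in SNU-216 6 were higher and 16 lower (background 14.6% and 14.0%), and in SNU-601 6 were higher and 3 lower (background 8.59% and 7.78%). Bright genes are called more often, so the same count was made among genes above the floor on all 12 arrays, where 15 of 34 members were lower in KATO-III (44.1%, background 27.4%), 15 in SNU-216 (44.1%, background 20.0%) and 3 in SNU-601 (8.82%, background 10.4%). The median CD133+ minus CD133- difference of the 45 genes was -0.09 log2 in KATO-III, -0.12 in SNU-216 and 0.01 in SNU-601, and the median of all tested genes was 0 in each line. The difference between lines in the CD133 effect was called by the F-test for 27 of the 45 genes (60.0%), against 44.4% of all tested genes. Among genes above the floor on all 12 arrays it was called for 23 of 34 (67.6%, background 58.5%). Such a difference was thus called for most bright genes of the series and is not particular to the list. The 9 higher calls in KATO-III became 2 without replicate 1 of either KATO-III fraction, 5 without replicate 2 of CD133+, 3 without replicate 2 of CD133- and 4 with no filter on dim genes or with a replicate block, while the lower calls numbered 16 to 18 under these settings. The 3 lower calls in SNU-601 became 0 without replicate 1 of either SNU-601 fraction and 1 without replicate 2 of either. The total SNU-601 count of 9 became 5 without replicate 1 of its CD133+ cells and 14 with a floor of 100.

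By line, 10 of the 45 genes were called in no line, 18 in 1, 11 in 2 and 6 in all 3. The call had the same direction in all 3 lines for 3 genes (6.67%, against 1.06% of all tested genes): GBP1 was higher, and OAS1 and ISG20 were lower. Opposite calls in different lines were found for 10 genes (22.2%, against 10.9% of all tested genes). They were STAT2, IRF7, IRF1, IFIT1, IFIT2, ISG15, IFITM1, MX1, GBP2 and IFI6. The KATO-III call of IFIT1 among them was set against the floor. The backgrounds of 1.06% and 10.9% include dim genes, which are called less often. Neither share was computed among bright genes alone. How far the higher shares of the list follow from brightness was therefore not tested.

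**Figure D3:**
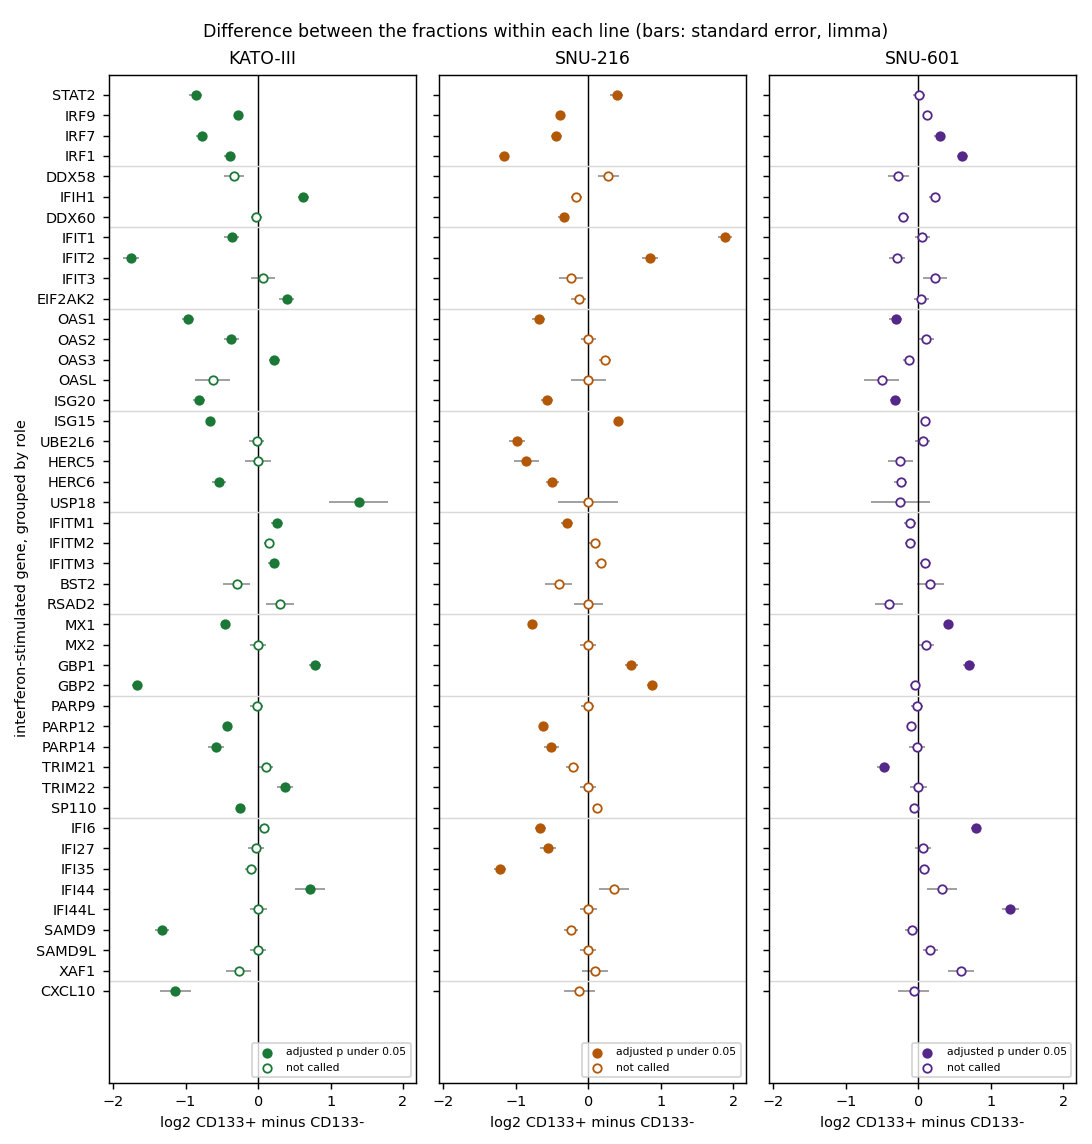
CD133+ minus CD133- difference in log2 intensity within each line for each of the 45 genes, with bars of 1 standard error from limma and filled symbols where the adjusted p is under 0.05. Most filled symbols lie left of 0 in KATO-III and SNU-216, SNU-601 has 6 to the right and 3 to the left, and GBP1 is filled on the right in all 3 lines.

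GBP1 was the only gene of the list that was higher in CD133+ cells over all lines, with a CD133+ minus CD133- difference in log2 intensity of 0.69 ± 0.072, adjusted p = 0.00273. It read 908 and 895 in CD133+ and 511 and 537 in CD133- KATO-III cells, 2458 and 2486 in CD133+ and 1663 and 1609 in CD133- SNU-216 cells, and 268 and 221 in CD133+ and 149 and 153 in CD133- SNU-601 cells. The CD133+ arrays lay above the CD133- arrays in each line, by 0.78 in KATO-III (adjusted p = 0.00011), 0.60 in SNU-216 (adjusted p = 0.000885) and 0.69 in SNU-601 (adjusted p = 0.00115). The effect was not called different between the lines (adjusted p = 0.446).

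ISG20, a 3′ to 5′ exonuclease that degrades single-stranded RNA, was lower in CD133+ cells over all lines (-0.57 ± 0.084, adjusted p = 0.00932). Its intensity was 2861 and 3095 in CD133+ and 5198 and 5284 in CD133- KATO-III cells, 166 and 173 in CD133+ and 228 and 275 in CD133- SNU-216 cells, and 6954 and 7039 in CD133+ and 8701 and 8726 in CD133- SNU-601 cells. Each line showed the fall without overlap, from -0.82 log2 in KATO-III through -0.57 in SNU-216 to -0.32 in SNU-601 (adjusted p = 0.0277). OAS1, which makes 2-5A when it binds double-stranded RNA, was also lower (-0.66 ± 0.11, adjusted p = 0.0142) and read 447 and 413 in CD133+ and 888 and 797 in CD133- KATO-III cells, 35.5 and 40.4 in CD133+ and 61.7 and 60.1 in CD133- SNU-216 cells, and 1729 and 1725 in CD133+ and 2166 and 2120.5 in CD133- SNU-601 cells. Within the lines it differed by -0.97, -0.69 and -0.31 log2, the last at an adjusted p of 0.042. The size of the fall differed between the lines for both genes (adjusted p = 0.017 and 0.00652). The call of OAS1 over all lines was lost with a floor of 100 (-0.43, adjusted p = 0.0762), which lies above its SNU-216 values. The SNU-601 calls of both were lost when any SNU-601 array was left out and with no filter on dim genes. That of OAS1 was also lost without either CD133- array of SNU-216, with a floor of 16, with centred arrays and with a replicate block, and that of ISG20 without the mean-variance trend.

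HERC6, a HECT ligase related to HERC5, was lower over all lines (-0.43 ± 0.08, adjusted p = 0.0207) and read 526 and 449.8 in CD133+ and 756 and 661 in CD133- KATO-III cells, 252 and 277 in CD133+ and 368 and 375 in CD133- SNU-216 cells, and 1712 and 1771 in CD133+ and 2007 and 2116 in CD133- SNU-601 cells. The fall was called in KATO-III (-0.54) and SNU-216 (-0.49) and was -0.24 in SNU-601 (adjusted p = 0.118). The call over all lines was lost without replicate 2 of CD133+ or replicate 1 of CD133- KATO-III cells. PARP12, an ADP-ribosyltransferase that acts against RNA viruses, read 1975 and 1906 in CD133+ and 2586 and 2659 in CD133- KATO-III cells, 1775 and 1928 in CD133+ and 2815 and 2877 in CD133- SNU-216 cells, and 2549.8 and 2506 in CD133+ and 2663 and 2777 in CD133- SNU-601 cells. It fell by 0.39 log2 over all lines (adjusted p = 0.0248), and the call was lost without any single array of KATO-III or SNU-216 and with no filter on dim genes. Its fall differed between lines (adjusted p = 0.00109), with -0.43 in KATO-III, -0.62 in SNU-216 and -0.11 in SNU-601, where it was not called. The study's list of genes lower in CD133+ cells, chosen on these arrays, includes PARP12, so its direction here is not independent evidence. On the linear signal-to-noise ratio it was the only 1 of the 45 beyond 1 or -1, at -1.40, where 0.402% of all genes lie below -1. That ratio divides by SDs that include the differences between lines, and PARP12 had the narrowest span between lines of the list (0.22 log2). GBP1, called higher in CD133+ cells of every line, had a ratio of 0.25. The ratio therefore does not rank the genes by their difference within lines.

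Without replicate 2 of CD133+ or replicate 1 of CD133- KATO-III cells, 3 of the 5 genes called over all lines were called. All 5 calls treat the 2 arrays of a population as independent. With the arrays of a population averaged first, limma called 0 of the 45 genes (3 at an unadjusted p under 0.05), and when a random block stood for each population it called 0 (7 at an unadjusted p under 0.05). The counts over all lines therefore rest on that choice, whereas the counts within lines are made against the spread between arrays alone.

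**Figure D4:**
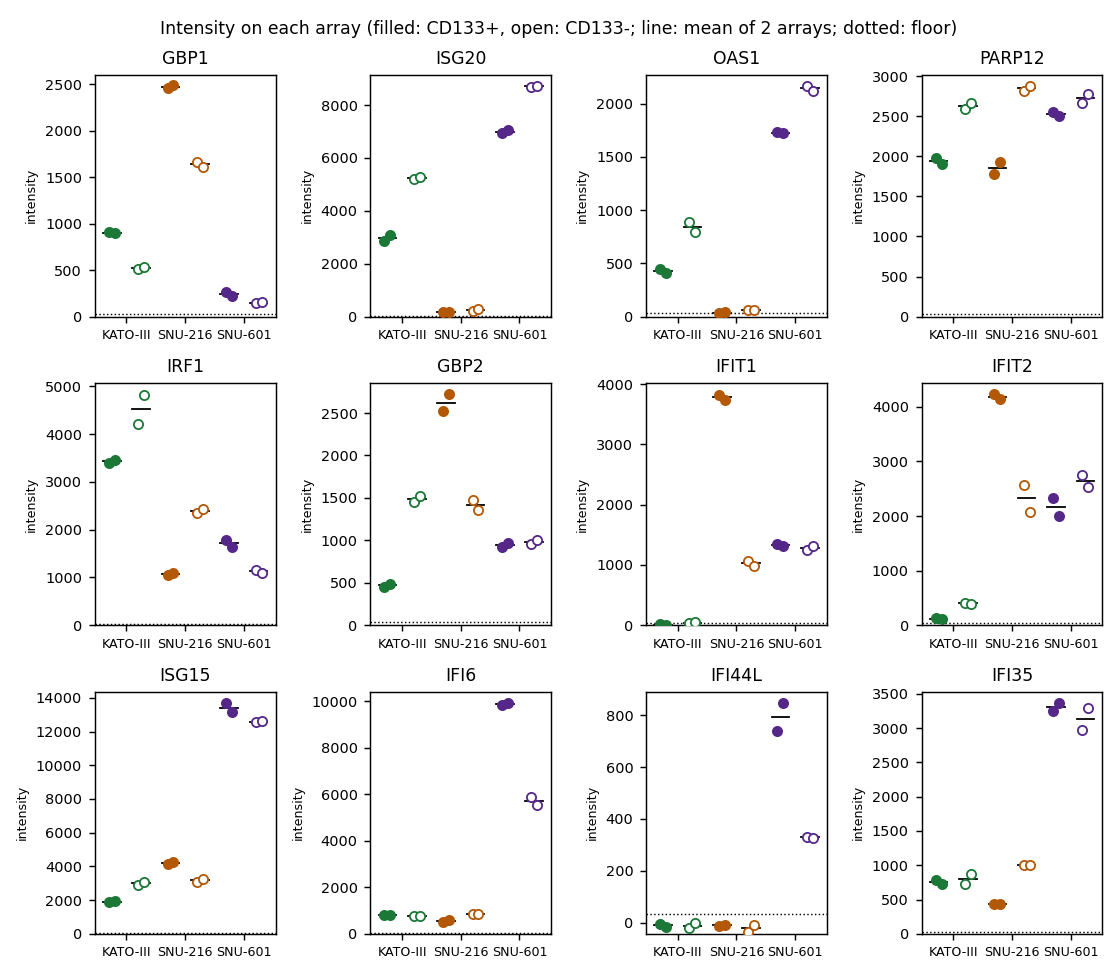
Intensity of 12 of the genes on each array, on a linear axis with a scale of its own for each gene, with filled symbols for CD133+, open symbols for CD133-, a line at the mean of the 2 arrays and the floor dotted. The filled symbols lie above the open ones for GBP1 and below them for ISG20, OAS1 and PARP12 in each line, while IRF1, GBP2, IFIT2, ISG15 and IFI6 change order between lines.

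Among the signal transducers and transcription factors, all 4 were lower in CD133+ KATO-III cells (background 20.6%). IRF9, the DNA-binding partner of STAT2, was lower in CD133+ cells of KATO-III (-0.28 ± 0.046, adjusted p = 0.00133) and SNU-216 (-0.39 ± 0.046, adjusted p = 0.000342) and was 0.12 in SNU-601 (adjusted p = 0.109). STAT2 was lower in KATO-III (-0.86 ± 0.087, adjusted p = 7.66e-05) and higher in SNU-216 (0.39 ± 0.087, adjusted p = 0.00866), and these effects differed by -1.25 log2 (adjusted p = 0.000107). IRF7, the master regulator of type I interferon genes, was lower in KATO-III (-0.78) and SNU-216 (-0.44) and higher in SNU-601 (0.30, adjusted p = 0.0291).

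IRF1, which activates antigen presentation genes, had opposite calls in different lines. It read 3393 and 3468 in CD133+ and 4215 and 4829 in CD133- KATO-III cells, 1046 and 1085 in CD133+ and 2340.2 and 2434 in CD133- SNU-216 cells, and 1792 and 1645 in CD133+ and 1157 and 1096 in CD133- SNU-601 cells. The CD133+ minus CD133- difference was -0.40 in KATO-III (adjusted p = 0.00199), -1.16 in SNU-216 (adjusted p = 1.08e-05) and 0.61 in SNU-601 (adjusted p = 0.000929), with no overlap between the fractions in any line. The effect in SNU-216 differed from that in SNU-601 by -1.77 log2 (adjusted p = 1.72e-05). MX1, a dynamin-like GTPase that blocks influenza virus, had the same pattern of calls, at -0.46 in KATO-III, -0.77 in SNU-216 and 0.40 in SNU-601 (adjusted p of the difference between lines = 1.94e-05).

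Of the 3 sensors of viral RNA, IFIH1 (MDA5) was higher in CD133+ KATO-III cells (0.62 ± 0.074, adjusted p = 0.000191) and DDX60 was lower in CD133+ SNU-216 cells (-0.34 ± 0.076, adjusted p = 0.00937). DDX58, which encodes RIG-I, was called in no line, with differences of -0.33 in KATO-III, 0.28 in SNU-216 and -0.28 in SNU-601.

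The IFIT genes, whose products bind viral RNA or the translation initiation factor eIF3, split within the family. IFIT1 read 15.2 and 1.70 in CD133+ and 37.5 and 47.4 in CD133- KATO-III cells, 3828 and 3746 in CD133+ and 1061 and 989 in CD133- SNU-216 cells, and 1340 and 1311 in CD133+ and 1243 and 1308 in CD133- SNU-601 cells. CD133+ SNU-216 cells were 3.70-fold higher (1.89 ± 0.10, adjusted p = 6.30e-06), the largest rise of the list in that line, and the difference was not called in SNU-601 (0.06 ± 0.10, adjusted p = 0.844). In KATO-III CD133- cells were at least 1.29-fold higher, since both CD133+ arrays were at the floor. IFIT2 read 125 and 112 in CD133+ and 409 and 391 in CD133- KATO-III cells, 4229 and 4148 in CD133+ and 2569 and 2079 in CD133- SNU-216 cells, and 2333 and 2004 in CD133+ and 2753 and 2539.7 in CD133- SNU-601 cells. It was 3.38-fold lower in CD133+ KATO-III cells (-1.76 ± 0.11, adjusted p = 5.79e-06) and 1.81-fold higher in CD133+ SNU-216 cells (0.86 ± 0.11, adjusted p = 0.000529), and the effects in these lines differed by -2.62 log2 (adjusted p = 8.90e-06). IFIT3 was called in no line. EIF2AK2, the kinase PKR that halts translation, was higher in CD133+ KATO-III cells (0.40 ± 0.10, adjusted p = 0.0146) and not called elsewhere.

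Among the 2-5A synthetases other than OAS1, the directions were mixed. In KATO-III OAS2 was lower (-0.37 ± 0.11, adjusted p = 0.0227) and OAS3 higher (0.22 ± 0.077, adjusted p = 0.046) in CD133+ cells. OASL was not called in any line, and its largest difference was -0.63 in KATO-III (adjusted p = 0.0729).

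In the ISG15 pathway, ISG15 itself was lower in CD133+ KATO-III cells (-0.66 ± 0.046, adjusted p = 1.05e-05) and higher in CD133+ SNU-216 cells (0.42 ± 0.046, adjusted p = 0.000245), and the 2 effects differed by -1.08 log2 (adjusted p = 9.71e-06). In both lines the fractions, given above, did not overlap, and in SNU-601 the difference was 0.09 (adjusted p = 0.223). UBE2L6 read 2533 and 2662 in CD133+ and 2531 and 2736 in CD133- KATO-III cells, 60.2 and 76.1 in CD133+ and 129.6 and 138 in CD133- SNU-216 cells, and 2886 and 3149.7 in CD133+ and 2781 and 3003 in CD133- SNU-601 cells. It was lower in CD133+ SNU-216 cells (-0.98 ± 0.11, adjusted p = 0.00022), while the fractions overlapped in KATO-III and SNU-601. The E3 ligase HERC5 was lower in CD133+ SNU-216 cells as well (-0.85 ± 0.18, adjusted p = 0.00635). USP18, which removes ISG15 and dampens receptor signalling, read 119.6 and 99.4 in CD133+ and 39.6 and 43.9 in CD133- KATO-III cells and 106 and 40.9 in CD133+ and 106 and 57.2 in CD133- SNU-601 cells, and was at the floor in SNU-216. Its rise in CD133+ KATO-III cells (1.39 ± 0.41, adjusted p = 0.0257) was lost when any of the 4 KATO-III arrays was left out, and the difference was 0.13 with a floor of 100.

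Of the 5 antiviral membrane proteins, 2 were higher in CD133+ KATO-III cells and 1 was lower in CD133+ SNU-216 cells (background 18.7% and 14.0%), and none was called in SNU-601. IFITM1 was higher in CD133+ KATO-III cells (0.26 ± 0.085, adjusted p = 0.0384) and lower in CD133+ SNU-216 cells (-0.29 ± 0.085, adjusted p = 0.0322), and IFITM3 was higher in CD133+ KATO-III cells (0.21 ± 0.071, adjusted p = 0.041). IFITM2, BST2 and RSAD2 (viperin) were called in no line.

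GBP2, like GBP1 a guanylate-binding GTPase induced strongly by interferon gamma, had the smallest adjusted p of the list for a difference between lines in the CD133 effect (2.54e-06). GBP2 read 448 and 489.9 in CD133+ and 1448 and 1528 in CD133- KATO-III cells, 2519 and 2719 in CD133+ and 1477 and 1360.2 in CD133- SNU-216 cells, and 917 and 972 in CD133+ and 952 and 1003 in CD133- SNU-601 cells. CD133+ cells were 3.18-fold lower in KATO-III (-1.67 ± 0.071, adjusted p = 9.37e-07) and 1.85-fold higher in SNU-216 (0.88 ± 0.071, adjusted p = 4.47e-05), and the fractions of SNU-601 overlapped. The effects in KATO-III and SNU-216 differed by -2.55 log2 (adjusted p = 1.13e-06). GBP1 and GBP2 thus moved apart in KATO-III and together in SNU-216.

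PARP14, an ADP-ribosyltransferase, was lower in CD133+ cells of KATO-III (-0.58 ± 0.11, adjusted p = 0.00227) and SNU-216 (-0.51 ± 0.11, adjusted p = 0.00678), as was PARP12, and PARP9, which acts with DTX3L, was called in no line. SP110, a nuclear body protein, was lower in CD133+ KATO-III cells (-0.24 ± 0.044, adjusted p = 0.00203). TRIM22 read 48.7 and 41.5 in CD133+ and 21.2 and 37.1 in CD133- KATO-III cells, close to the floor, and was called higher in CD133+ KATO-III cells (0.37 ± 0.11, adjusted p = 0.0296). TRIM21, a cytosolic antibody receptor and ubiquitin ligase, read 356 and 394 in CD133+ and 342 and 353 in CD133- KATO-III cells, 578 and 563 in CD133+ and 622 and 704 in CD133- SNU-216 cells, and 513 and 589 in CD133+ and 787 and 745 in CD133- SNU-601 cells. Its fall in CD133+ SNU-601 cells (-0.48 ± 0.092, adjusted p = 0.00863) was lost without replicate 1 of either SNU-601 fraction.

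The remaining induced genes were each called in few lines. IFI6 was higher in CD133+ SNU-601 cells (0.80 ± 0.073, adjusted p = 0.000362) and lower in CD133+ SNU-216 cells (-0.66 ± 0.073, adjusted p = 0.000246), without overlap of the arrays given above. IFI44L read 740.5 and 847 in CD133+ and 331 and 326 in CD133- SNU-601 cells, 2.41-fold higher in CD133+ cells (1.27 ± 0.12, adjusted p = 0.000362), the largest rise of the list in that line. Its paralog IFI44 read 415 and 379 in CD133+ and 236 and 248 in CD133- KATO-III cells, 114 and 87.5 in CD133+ and 61.5 and 98.7 in CD133- SNU-216 cells, and 3349 and 3332 in CD133+ and 2915 and 2449 in CD133- SNU-601 cells. IFI44 was called higher in CD133+ KATO-III cells (0.71 ± 0.21, adjusted p = 0.0235), a call lost without any of the 4 KATO-III arrays, and the CD133+ arrays of SNU-601 also lay above the CD133- arrays (0.32 ± 0.21, adjusted p = 0.372).

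IFI35, which partners NMI, read 779.9 and 722 in CD133+ and 733 and 875 in CD133- KATO-III cells, 437 and 431 in CD133+ and 1010.2 and 1005 in CD133- SNU-216 cells, and 3244 and 3367 in CD133+ and 2971 and 3291 in CD133- SNU-601 cells. It was 2.32-fold lower in CD133+ SNU-216 cells (-1.22 ± 0.085, adjusted p = 2.18e-05), the largest fall of the list in SNU-216, and the fractions of KATO-III and SNU-601 overlapped. SAMD9, a restriction factor of poxviruses, read 173 and 174 in CD133+ and 427 and 445 in CD133- KATO-III cells, 221 and 227 in CD133+ and 243 and 285 in CD133- SNU-216 cells, and 2663 and 2867 in CD133+ and 2711 and 3183 in CD133- SNU-601 cells. It was 2.51-fold lower in CD133+ KATO-III cells (-1.33 ± 0.096, adjusted p = 1.28e-05), and the effect differed from that in SNU-216 by -1.10 log2 (adjusted p = 0.000399). IFI27 was lower in CD133+ SNU-216 cells (-0.56 ± 0.11, adjusted p = 0.00533), where it was dim, and not called in the lines where it was bright. XAF1, an antagonist of XIAP, was called in no line. The chemokine CXCL10, a ligand of CXCR3, read 49.2 and 12.3 in CD133+ and 89.2 and 87.9 in CD133- KATO-III cells, near the floor, and was called lower in CD133+ KATO-III cells (-1.14 ± 0.22, adjusted p = 0.0028, a lower bound in size).

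The rest of the interferon pathway was followed in a list of 37 further genes with a row, of which 29 were tested. In CD133+ cells 6 were higher and 13 lower in KATO-III (background 18.7% and 20.6%), 6 higher and 6 lower in SNU-216 (background 14.6% and 14.0%), and 3 higher and 5 lower in SNU-601 (background 8.59% and 7.78%), and 1 (STAT3) was called over all lines. Of 9 interferon ligands (IFNA1, IFNA2, IFNB1, IFNG, IFNE, IFNK, IL28A, IL28B and IL29), 8 were at the floor on all 12 arrays, and IFNE passed it on 5. Of the 6 receptor genes, 4 were lower and 2 higher in CD133+ KATO-III cells, 3 were higher in SNU-216, and 1 was higher and 1 lower in SNU-601, beside the same background shares. IFNAR1, a chain of the type I interferon receptor, was lower in CD133+ KATO-III cells (-0.73 ± 0.075, adjusted p = 8.74e-05) and higher in CD133+ SNU-216 cells (0.43 ± 0.075, adjusted p = 0.00282). IFNGR1, the ligand-binding chain for interferon gamma, was called in the same directions (-0.52 and 0.37). IFNAR2, the other type I chain, had higher means in CD133+ cells of KATO-III (495 against 404), SNU-216 (281 against 248) and SNU-601 (818 against 631).

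STAT3, a transducer of the interleukin 6 family, was lower in CD133+ cells over all lines (-0.38 ± 0.069, adjusted p = 0.018). That call, too, treats the 2 arrays of a population as independent, and STAT3 was not followed through the alternative settings. TYK2, a kinase of the type I receptor, was lower in CD133+ cells of KATO-III (-1.11 ± 0.053, adjusted p = 1.53e-06) and SNU-216 (-0.48 ± 0.053, adjusted p = 0.000257). It was higher in those of SNU-601 (0.24 ± 0.053, adjusted p = 0.0165), the directions in which IRF7, IRF1 and MX1 were called. The means of JAK1 and JAK2 ran the other way in SNU-216 and SNU-601. JAK1 had 1391 in CD133+ and 1135 in CD133- SNU-216 cells, and 1477 and 1723 in SNU-601. JAK2 had 60.8 and 21.2 in SNU-216, near the floor, and 547 and 813 in SNU-601. DHX58 (LGP2) and TLR3, both receptors for viral RNA, were lower in CD133+ KATO-III cells, at -1.52 and -0.93 log2, the latter with 1 of the 2 CD133+ arrays at the floor, so that the difference is a lower bound in size. VISA, the older symbol of the adaptor MAVS, was higher there (0.91 ± 0.14, adjusted p = 0.001).

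Markers of other cell types were set beside these differences. Of 7 leukocyte markers 3 were at the floor on all arrays. CD68, a lysosomal protein of macrophages that other cells also hold, was lower in CD133+ cells over all lines (-0.98 ± 0.14, adjusted p = 0.00868), as were OAS1, ISG20, HERC6 and PARP12. CD14 read 856 and 835 in CD133+ and 1202 and 1242 in CD133- KATO-III cells, lower in CD133+ cells, and LYZ, which gastric epithelium also makes, was higher there (-0.53 and 0.66 log2). The summed leukocyte list was 7999 to 8341 in CD133+ and 5827 to 6046 in CD133- KATO-III cells, 206 to 218 and 424 to 469 in SNU-216, and 10290 to 10340 and 10980 to 11700 in SNU-601. Of 6 fibroblast markers COL3A1, DCN and PDGFRB were at the floor on all arrays, and LUM read 64.4 and 91.6 in CD133+ and 743 and 783 in CD133- KATO-III cells. The summed fibroblast list was 117 to 172 in CD133+ and 777 to 832 in CD133- KATO-III cells, 97.7 to 99.7 and 24.1 to 44.4 in SNU-216, and 153 to 201 and 139 to 196 in SNU-601. The part of these genes in the results was not tested.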

How the data were processed

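Gene expression of 6 sorted populations was measured on 12 Illumina HT-12 v3 arrays, 750 ng of cRNA each. The authors extracted the signals with BeadStudio, per the labels, and deposited quantile-normalized intensity values with 1 row per gene symbol. The values are linear, and 32.1% of them are at or below 0, as a background subtraction leaves them. The rule that merged several probes into 1 row is not given in the sources used here. Of 34688 rows, 93 are empty. Groups were taken from the labels.

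A floor was set at 32.7, the absolute value of the 1st percentile, dimmer values were raised to it, and log2 was taken. The 20147 genes that passed it on 2 or more arrays entered limma 3.58.1 (R 4.3.3) with a mean-variance trend and Benjamini-Hochberg adjustment over all genes tested, at 0.05. The fit over all lines had line as a block (8 residual degrees of freedom). The fits within and between lines had a mean for each of the 6 populations (6 residual degrees of freedom). The signal-to-noise ratio was the mean of 6 CD133+ arrays minus that of 6 CD133- arrays, over the summed SDs. Fold changes of genes at the floor are lower bounds, and those of dim genes depend on the floor. Intensities of different genes were not compared, and the number of arrays limits the precision.

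The members, the lists and the tests were chosen with earlier results of these data known. Members were named with a value on every array when they were called over all lines, were among the 3 largest rises or falls called in a line, had 1 of the 5 smallest adjusted p-values for the difference between lines or 1 of the 3 largest spans between lines, or were PARP12. Other members were described within their role groups. MX2, SAMD9L, RSAD2, HERC5, TRIM22, OAS2 and IFITM1 were named in the comparison of lines after their values were seen. So were the pathway genes and markers given with values other than PROM1. Some genes of the pathway list are not reported here.

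The fits were tested on simulated data of 20147 genes, 200 of them shifted by 1 log2 unit, of which limma found 89% over all lines, 69% within KATO-III and 47% for the difference between lines. The simulated noise was independent between arrays, and no gene but the shifted ones could differ between fractions. The measured genes also vary in how the fraction depends on the line, so these shares do not give the power here. Alternatives covered the floor, an offset, the filter, the normalization, the trend, the treatment of replicates and leaving out each array. Python 3.11.15 with pandas 2.3.3, numpy 2.4.6 and matplotlib 3.10.9 served for tables, promoters and figures.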

Additional observations from a re-analysis of the deposited data

Results flagged for a closer look

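The CD133+ minus CD133- difference was called different between lines for 15 of the 21 genes named with a value on every array, by limma's F-test of line and fraction over all 20147 tested genes, of which 44.4% were called. Part of the 21 were named for this test or for a change in 1 line, so the count follows from that choice and the values are a description. The smallest adjusted p was that of GBP2 (2.54e-06), which was lower in CD133+ KATO-III cells (log2 difference -1.67) and higher in CD133+ SNU-216 cells (0.88). The same pair of directions was called for ISG15 (adjusted p = 1.66e-05; -0.66 and 0.42), IFIT2 (1.72e-05; -1.76 and 0.86) and IFIT1 (1.81e-05; -0.37 and 1.89), the KATO-III value of the last being set against the floor.

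IRF1 (adjusted p = 1.35e-05) was lower in CD133+ KATO-III and SNU-216 cells and higher in CD133+ SNU-601 cells, with log2 differences of -0.40, -1.16 and 0.61. IFI6 (3.84e-05) was lower in CD133+ SNU-216 cells (-0.66) and higher in CD133+ SNU-601 cells (0.80).

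In 1 line alone, a change was called for IFI35 (9.86e-05; -1.22), UBE2L6 (0.000896; -0.98) and IFI27 (0.021; -0.56), each lower in CD133+ SNU-216 cells, and for SAMD9 (0.000232; -1.33), lower in CD133+ KATO-III cells. In SNU-601 alone, IFI44L (adjusted p = 0.000411) was higher in CD133+ cells by 1.27 on the log2 scale, and TRIM21 (0.015) fell by 0.48. In the other lines the floor fixes the difference of IFI44L at 0, so its p says nothing of those lines.

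OAS1 (adjusted p = 0.00652), ISG20 (0.017) and PARP12 (0.00109) had differences of 1 sign in all 3 lines that differed in size, and the smallest was in SNU-601 (-0.31, -0.32 and -0.11, the last not called). With 2 arrays in a population, single arrays could not be checked as outliers.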

How the results depend on the processing

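The 5 genes called over all lines became 0 with the arrays of a population averaged first (3 at an unadjusted p under 0.05), 0 when each population was a random block (7) and 3 to 5 when 1 array was left out. In SNU-601 the 9 calls became 14 with a floor of 100 (9 higher and 5 lower of 44 tested) and 5 to 10 when 1 array was left out. Without 1 array the counts ran from 18 to 26 in KATO-III, 20 to 23 in SNU-216 and 22 to 27 for the difference between lines, and from 36 to 39, 39 to 40 and 42 to 42 for KATO-III against SNU-216, KATO-III against SNU-601 and SNU-216 against SNU-601. These and the other settings kept those totals within 1.5 times the reported ones, but not the 9 higher calls in KATO-III (2 to 8 without 1 array). For the named genes, 435 alternative values kept direction and side of the threshold, 57 lost the call and 0 reversed. Many of these settings can change the p-value but not the difference. Among them are leaving out an array of another line, dropping the trend and blocking by replicate. The counts therefore say little about the direction. Why calls were lost was not tested. Intensities near the floor limit USP18, IFIT1 in KATO-III and OAS1 in SNU-216.

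Replicate numbers did not pair the arrays: the deviations of same-numbered arrays correlated at 0.026, 0.013 and -0.0065 in KATO-III, SNU-216 and SNU-601. With a replicate block, limma called 0 genes over all lines (9 at an unadjusted p under 0.05), 21 in KATO-III, 22 in SNU-216, 7 in SNU-601 and 26 for the difference between lines.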
